A study of Mus musculus with 54 samples.

Results

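The 179 genes described here are the mouse olfactory receptor genes of chromosome 9, taken as all annotated genes whose symbol starts with Olfr and a digit (or Or in the newer nomenclature) and whose start lies on chromosome 9 of mm10, out of 47042 genes annotated on the autosomes. Of these, 51 lie in a cluster from Olfr24 to Olfr18 (chr9:18754692-20336094, 1.58 Mb), called cluster 1. A further 127 lie in a cluster from Olfr160 to Olfr986 (chr9:37711348-40188094, 2.48 Mb), called cluster 2. Olfr369-ps1 lies apart from both, at chr9:3233343-3236366, and is given at the end. Cluster 1 holds 35 protein-coding genes and 16 pseudogenes, and cluster 2 holds 95 protein-coding genes, 31 pseudogenes and 1 gene annotated as another RNA. The members were chosen by name and position, and no measured value entered the choice.

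The study profiled DNA replication timing of the 2 parental alleles in hybrid mouse cells. After a BrdU pulse, cells in the early and in the late part of S phase were separated by flow sorting and the labelled DNA of each fraction was sequenced, so that 54 libraries gave 27 profiles of the log ratio of early over late signal per allele in 50 kb windows. The labels and headers do not give the logarithm's base, which is read here as 2. A positive value means replication early in S phase and a negative value late. Timing below is the mean of both alleles, and the allelic difference is the first-named allele minus the second.

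Embryonic stem cells (ESCs) with a 129 and a Cas genome came from 5 lines: F121 (1 profile), F121-6 (4), F121-9 (4) and the male line F123 (2), all labelled 129 / cas, and Cas129 (2), labelled with the cross turned round, cas / 129. F121-6 and F121-9 were grown both on mitomycin-C-inactivated fibroblast feeders and feeder-free in 2i medium with inhibitors of MEK and GSK3 and with LIF, and the other ESC lines are labelled 2i. Neural precursor cells (NPCs) were differentiated for 11 days from F121-9 (1 profile) and Cas129 (2). Mouse embryonic fibroblasts (MEFs) came from 4 embryos of the cas / 129 cross, each profiled in duplicate (2 profiles); the labels call embryos 1 and 2 female and 3 and 4 male. Extraembryonic endoderm (XEN) cells, 1 female line with 2 profiles, carry C57B6 and Cas alleles. The male ESC line V6.5, with 1 profile, carries C57B6 and 129 alleles. The remaining ESC lines with a Cas genome are labelled female. XEN cells and V6.5 were not tested, because each is a single line with other parents. All MEF embryos come from the same cross direction, so strain and parent of origin cannot be told apart in them. Cas129 is the only ESC line of its cross direction.

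Olfactory receptor genes encode the odorant receptors of olfactory sensory neurons and form a very large gene family. They lie in AT-rich clusters on many chromosomes, and each mature olfactory neuron expresses a single receptor gene from a single allele. A receptor's coding sequence is usually carried by a single exon of roughly a kilobase. None of the profiled cell types is an olfactory neuron, and no RNA was measured here. Replication timing is a property of large chromosome domains rather than of single genes: early replication usually goes with accessible chromatin and late replication with the nuclear lamina.

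The promoters shown here belong to genes at the 3 places where the clusters' values turned most: the stretch of cluster 1 with the largest allelic difference in ESCs (Olfr855, Olfr58), the stretches of cluster 2 with opposite allelic differences (Olfr26, Olfr952), and the end of cluster 2 that replicated early in ESCs and late in NPCs and MEFs (Olfr982, Olfr986). Each runs from 250 bases before to 50 bases after the gene's start on the gene's own strand, 5′ to 3′, as RefSeq gives it for GRCm38.p6. The median annotated length of a member was 948 bases in cluster 1 and 942 in cluster 2, about that of the coding exon alone. Many annotated starts may therefore be coding starts, and these bases may then not hold the promoter of the transcript. Capitals mark TAATNA on either strand, the core bound by homeodomain proteins. The positions are chr9:19584261-19584560 (Olfr855, plus strand), chr9:19780033-19780332 (Olfr58, plus), chr9:38854810-38855109 (Olfr26, plus), chr9:39427099-39427398 (Olfr952, minus), chr9:40074047-40074346 (Olfr982, plus) and chr9:40186829-40187128 (Olfr986, plus).
Olfr855: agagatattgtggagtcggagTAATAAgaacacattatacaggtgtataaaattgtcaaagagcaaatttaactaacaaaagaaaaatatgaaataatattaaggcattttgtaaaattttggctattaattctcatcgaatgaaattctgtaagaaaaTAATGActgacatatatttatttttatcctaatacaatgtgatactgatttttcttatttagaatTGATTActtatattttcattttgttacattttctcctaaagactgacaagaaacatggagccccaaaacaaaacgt
Olfr58: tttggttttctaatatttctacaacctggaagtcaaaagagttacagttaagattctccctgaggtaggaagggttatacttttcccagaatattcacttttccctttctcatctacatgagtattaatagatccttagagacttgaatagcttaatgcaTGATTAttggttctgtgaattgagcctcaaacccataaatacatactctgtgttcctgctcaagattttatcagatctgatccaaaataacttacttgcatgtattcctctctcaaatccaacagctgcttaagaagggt
Olfr26: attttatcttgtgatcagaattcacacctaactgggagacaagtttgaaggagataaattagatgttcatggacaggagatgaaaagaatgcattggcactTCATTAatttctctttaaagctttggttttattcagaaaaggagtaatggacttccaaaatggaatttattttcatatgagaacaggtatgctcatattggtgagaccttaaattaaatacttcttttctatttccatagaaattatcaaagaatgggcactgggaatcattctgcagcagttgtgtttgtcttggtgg
Olfr952: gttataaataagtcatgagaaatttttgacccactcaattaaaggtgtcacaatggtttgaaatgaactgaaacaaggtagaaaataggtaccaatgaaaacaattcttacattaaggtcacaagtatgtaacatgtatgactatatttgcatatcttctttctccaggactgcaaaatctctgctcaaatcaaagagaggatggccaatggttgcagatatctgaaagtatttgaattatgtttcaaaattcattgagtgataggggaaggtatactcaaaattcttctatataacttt
Olfr982: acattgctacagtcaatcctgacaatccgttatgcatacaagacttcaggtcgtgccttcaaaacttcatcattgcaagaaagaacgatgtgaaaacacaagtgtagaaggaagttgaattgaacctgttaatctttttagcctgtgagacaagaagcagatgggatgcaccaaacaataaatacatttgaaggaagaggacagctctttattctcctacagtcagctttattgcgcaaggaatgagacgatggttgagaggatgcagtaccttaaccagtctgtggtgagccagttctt
Olfr986: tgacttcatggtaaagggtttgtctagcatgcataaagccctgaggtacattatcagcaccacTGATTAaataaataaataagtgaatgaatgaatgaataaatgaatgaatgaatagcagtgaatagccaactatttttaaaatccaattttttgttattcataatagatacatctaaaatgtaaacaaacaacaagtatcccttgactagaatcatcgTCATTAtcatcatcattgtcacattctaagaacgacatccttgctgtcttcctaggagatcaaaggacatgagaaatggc

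RefSeq promoters were found for 30 members of cluster 1 (30 promoters) and 79 members of cluster 2 (80 promoters). Since annotated starts may be coding starts, the counts below describe only the bases around these starts. They do not show which sites the promoters of the transcripts hold. TAATNA was present in 24 of the 30 (80%) and in 50 of the 80 (62.5%). The same letters were present in 65.9% of the promoters of olfactory receptor genes on other autosomes and in 26.5% of all 32851 promoters of this length. Olfr952 and Olfr982 held no match. The core of the site of the EBF factors of olfactory neurons, TCCC and GGGA with any 2 bases between, was found on either strand in 0 promoters of either cluster, in 0.601% of those of other olfactory receptor genes and in 0.904% of all, so no match of the motifs overlapped in the clusters. The median GC content was 30.8% in cluster 1, 35.5% in cluster 2, 35.3% in other olfactory receptor promoters and 52.7% over all promoters, and the median number of CpG dinucleotides was 0.5, 1, 1 and 7.

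The members overlapped 29 windows in cluster 1 and 48 in cluster 2, of 43941 autosomal windows. The 3 genes Olfr967, Olfr968 and Olfr969 of cluster 2 fell in no window of the table, so 124 of its genes have values. A window holds up to 4 members in cluster 1 and up to 5 in cluster 2, and these share 1 value. Correlations between neighbouring windows along the autosomes were 0.98 to 0.994 for timing, so members are not independent of each other. Olfactory receptor genes are close copies of each other, and how reads that map to several places were treated is not given in the sources used here. The values carry no read counts, so depth is unknown.

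The columns fell into 2 sets scaled differently: the median of the autosomal medians was -0.63 over the ESC and NPC columns and -0.03 over the MEF and XEN columns. Over all autosomal windows the median MEF minus ESC timing difference was 0.38, MEF minus NPC 0.35 and NPC minus ESC 0.03, and the timing differences of MEFs below are read against these. The X chromosome went against the sex label in embryos 1 and 3. Embryo 1, labelled female, had a nearly flat profile of the 129 X (SD along the chromosome 0.25 and 0.30 in its 2 profiles), like embryo 4, labelled male (0.27 and 0.19), whereas embryo 3, labelled male, had 1.32 and 1.34, like embryo 2. The counts of windows called in MEFs and the tested MEF differences of named genes are therefore given with and without embryos 1 and 3. Markers of the labelled cell type replicated earliest in their own type for 5 of 6 in ESCs, 4 of 6 in NPCs, 5 of 6 in MEFs and 4 of 5 measured in XEN cells. The Pearson correlation of timing between repeat profiles of a line or embryo over member windows was 0.817 to 0.986 in cluster 1 and 0.932 to 0.99 in cluster 2, apart from the 2 Cas129 NPC profiles, at 0.599 and 0.765. Repeat profiles of a line or embryo may be technical, and p-values below measure only the spread between lines and embryos, or, for feeders against 2i, between single profiles within a line.

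Both clusters replicated late in every cell type, and later in NPCs and MEFs than in ESCs. In cluster 1 the mean timing over member windows was -2.27 in F121, -1.80 in F121-6, -1.77 in F121-9, -2.32 in F123 and -1.89 in Cas129, a mean of -2.01 ± 0.26 (SD, n = 5 ESC lines). The NPC lines gave -3.24 (F121-9) and -3.32 (Cas129), and the embryos -3.28, -3.34, -3.31 and -3.44 (-3.34 ± 0.07, SD, n = 4). The 2 Cas129 NPC profiles differed, at -3.88 and -2.75. All NPC and MEF values lay below all ESC values. In cluster 2 the ESC lines gave -1.81, -1.45, -1.41, -2.08 and -1.45 in the same order (-1.64 ± 0.30, SD, n = 5), the NPC lines -3.42 and -3.34, and the embryos -3.00, -2.93, -2.95 and -3.16 (-3.01 ± 0.11, SD, n = 4). The 2 Cas129 NPC profiles had -3.63 and -3.05 there. The ESC values again did not overlap with those of NPCs or MEFs. F123 was the latest ESC line in both clusters. XEN cells, whose columns share the scale of the MEF columns, stood at -2.68 in cluster 1 and -2.26 in cluster 2, above all embryos. With each column centred on its median, XEN cells had -2.67 in cluster 1, where NPCs had -2.62 and ESCs -1.34, and -2.25 in cluster 2, where NPCs had -2.72 and ESCs -0.97, so their place relative to NPCs depended on the scaling in cluster 1. V6.5, at -2.12 and -1.83, lay within the range of the other ESC lines.

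**Figure D1:**
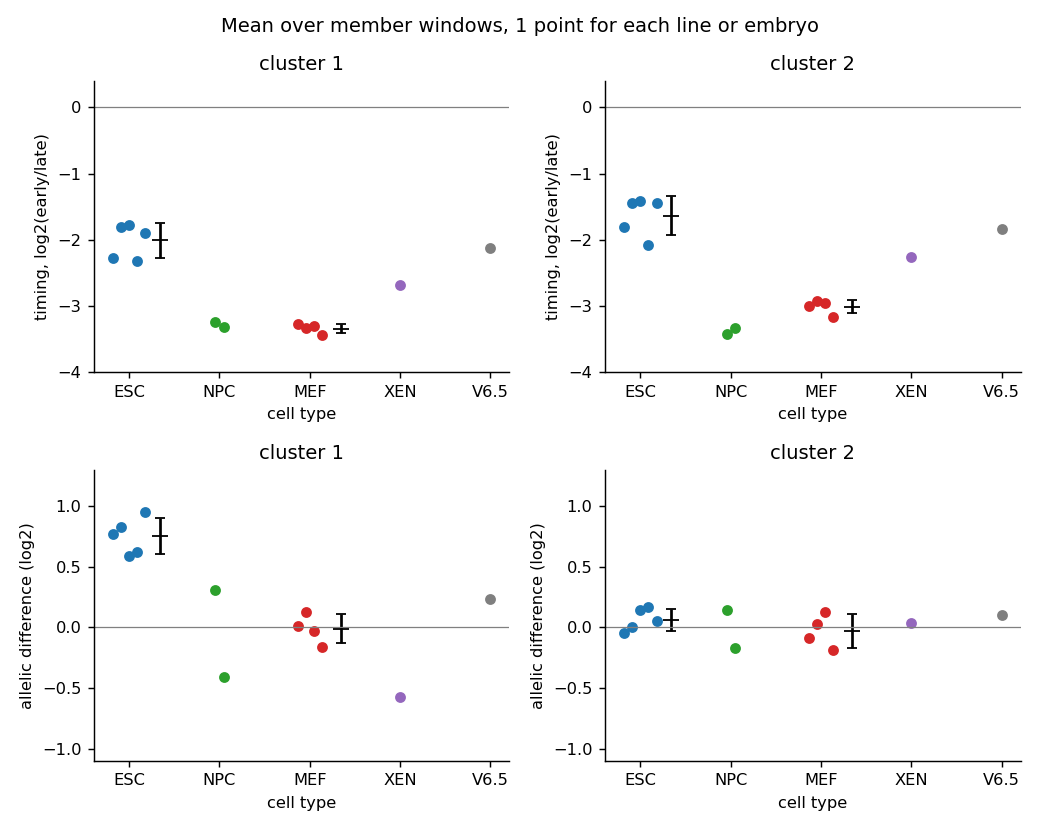
Mean timing (top, log ratio of early over late) and mean allelic difference (bottom, log ratio) over the member windows of cluster 1 and cluster 2; each point is a line or embryo, and the bar and error bar give the mean ± SD of a cell type. ESC timing points lie above all NPC and MEF points, and the allelic difference of cluster 1 lies between 0.59 and 0.95 in the 5 ESC lines and between -0.16 and 0.13 in the 4 embryos.

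Most of each cluster was late even in ESCs, where 27 of 29 windows of cluster 1 (93.1%) and 41 of 48 of cluster 2 (85.4%) had a timing below 0, against 57.1% of all autosomal windows. In NPCs and MEFs all windows of both clusters were below 0. The clusters were not among the latest parts of the ESC genome: 0 windows of either fell into the latest 10% of autosomal windows in ESCs. In NPCs 34.5% of the windows of cluster 1 and 56.2% of those of cluster 2 fell into the latest 10%, and in MEFs 65.5% and 39.6% did. In XEN cells the shares were 34.5% and 39.6%. These shares are ranks within a cell type and do not depend on the scaling of the columns. The 393 windows with olfactory receptor genes on other autosomes were less late, with a mean timing of -1.08 in ESCs, -1.94 in NPCs and -1.41 in MEFs, and 4.83%, 17% and 14.8% of them in the latest 10%.

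**Figure D2:**
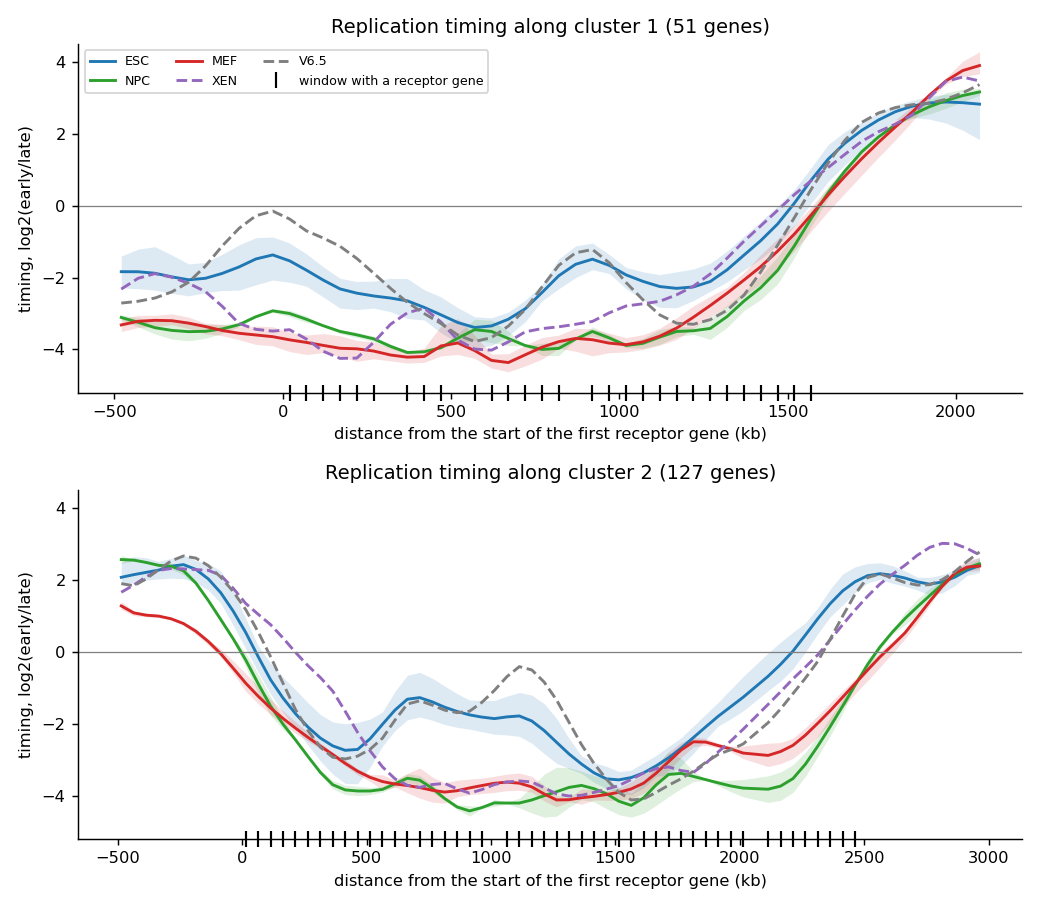
Timing (log ratio of early over late, mean of both alleles) along cluster 1 (top) and cluster 2 (bottom) against the distance in kb from the start of the first receptor gene; lines are means per cell type, shading is the range over lines or embryos, dashed lines are XEN cells and V6.5, and ticks mark windows with a receptor gene. NPC and MEF lines run below the ESC line through most of both clusters, and the widest gap lies at the right end of cluster 2.

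The difference between NPCs and ESCs was tested in 1 limma model over all autosomal windows, with lines and embryos as replicates. Both NPC lines were differentiated from ESC lines that also belong to the ESC group. The model did not pair them, so each NPC line and its parent ESC line counted as independent replicates. All NPC minus ESC p-values given here, of timing and of the allelic difference, carry this limit. A window was called at an adjusted p under 0.05 and a timing difference of at least 1. Of the 29 windows of cluster 1, 25 were called later in NPCs and 0 earlier, and of the 48 of cluster 2, 31 later and 0 earlier, where 16.1% of all autosomal windows were called later. These windows held 41 of 51 members of cluster 1 and 85 of 124 of cluster 2. The median difference over member windows was -1.28 and -1.64, against 0.03 over all windows. Among olfactory receptor windows on other autosomes 45% were called later and 7 of 393 earlier, with a median of -0.86.

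MEFs against ESCs gave 18 of 29 windows of cluster 1 called later (31 of 51 members) and 28 of 48 of cluster 2 (77 of 124 members), with 0 earlier, where 13.7% of all windows were called later and 44% in either direction. The medians were -1.37 and -1.34, against 0.38 over all windows. With every column centred on its own median the counts rose to 29 and 38, and with quantile normalisation to 28 and 33, all of them later in MEFs. Centring raised the ESC columns against the MEF columns in every window. The shares of all windows called under these scalings are not given here, so the rise cannot be read as particular to the clusters. Without embryos 1 and 3 they were 22 and 28. Both comparisons use the same ESC lines, so they are not independent of each other. Between MEFs and NPCs, 0 windows of cluster 1 and 3 of cluster 2 (7 members) were called earlier in MEFs, where 25.7% of all windows were. The latter direction rested on the scaling: with columns centred on their median 8 windows of cluster 1 and 1 of cluster 2 were called, all later in MEFs (7.64% of all windows as deposited), and after quantile normalisation 1 and 1. The counts as deposited were 0 and 3 without embryos 1 and 3. The count of 3 became 8 without NPC F121-9, 5 without embryo 3 and 8 without embryo 4.

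The right end of cluster 2 replicated early in ESCs and late in NPCs and MEFs, and it held the largest timing differences of the members. Olfr986, the last receptor gene (Entrez 258608, chr9:40187079-40188094), had a timing of 1.65 in F121, 2.06 in F121-6, 2.37 in F121-9, 1.81 in F123 and 1.88 in Cas129. It had -0.91 and -0.94 in the NPC lines F121-9 and Cas129, and -0.80, -0.81, -0.75 and -1.16 in embryos 1 to 4. All ESC lines were early and all NPC lines and embryos late. The NPC minus ESC difference was -2.88 ± 0.21 (SE; limma adjusted p = 2.91e-08) and the MEF minus ESC difference -2.84 ± 0.17 (SE; limma adjusted p = 3.62e-10), or -2.94 without embryos 1 and 3 (limma adjusted p = 8.77e-08). XEN cells had 1.17 and V6.5 1.61, on the early side with the ESCs.

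Further in, Olfr982 (Entrez 258853, chr9:40074297-40075262), which shares its window with Olfr983, had 0.98, 1.62, 1.75, 1.01 and 1.37 in the ESC lines in the same order. The NPC lines had -1.82 and -2.33, and the embryos -1.62, -1.52, -1.42 and -1.97. Again no ESC value overlapped with an NPC or MEF value, and XEN cells (0.34) and V6.5 (0.36) were early but less so. The differences were -3.42 ± 0.25 for NPCs (SE; limma adjusted p = 2.68e-08) and -2.98 ± 0.20 for MEFs (SE; limma adjusted p = 1.43e-09), the latter the largest MEF minus ESC difference of any member. Without embryos 1 and 3 it was -3.09 (limma adjusted p = 2.02e-07).

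Olfr976 (Entrez 258364, chr9:39954257-39961044), whose window also holds Olfr975, Olfr977-ps1 and Olfr978, lay near 0 in ESCs: 0.17, 0.65, 0.72, 0.00 and 0.81. It was late in NPCs, at -2.79 and -3.46, and in MEFs, at -2.28, -2.11, -2.19 and -2.69. The groups did not overlap, XEN cells had -0.42 and V6.5 -0.73. This window had the largest NPC minus ESC difference of either cluster, -3.59 ± 0.26 (SE; limma adjusted p = 2.88e-08), and its MEF minus ESC difference was -2.79 ± 0.21 (SE; limma adjusted p = 6.17e-09), or -2.87 without embryos 1 and 3 (limma adjusted p = 7.95e-07). By contrast, receptor genes in the middle of cluster 2 were late in all types: Olfr944 and Olfr1537 had the latest mean timing of the cluster in ESCs, -3.56 ± 0.24 (SD, n = 5), with -4.15 in NPCs and -3.91 ± 0.16 in MEFs (SD, n = 4).

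**Figure D3:**
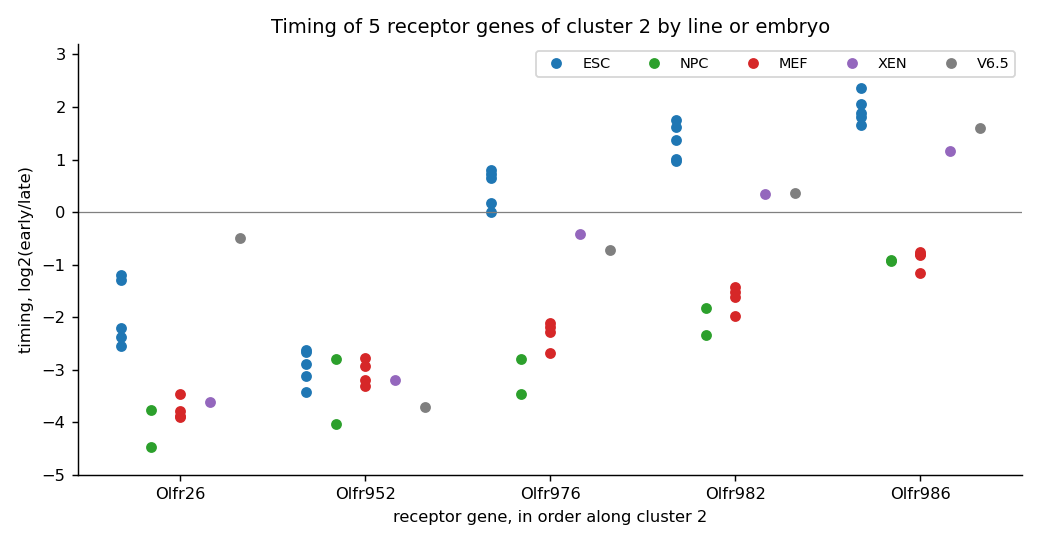
Timing (log ratio of early over late) of Olfr26, Olfr952, Olfr976, Olfr982 and Olfr986 by cell type; each point is a line or embryo. Olfr986 lies between 1.65 and 2.37 in the 5 ESC lines and below 0 in both NPC lines and all 4 embryos, while Olfr952 is late in every cell type.

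The position where timing crosses 0 shows the same change as a shift of the cluster's edge. At the right edge of cluster 2 it lay at 39.91 Mb in ESCs (SD 57.6 kb, n = 5, from 39.83 to 39.97 Mb), at 40.26 Mb in NPCs (40.25 and 40.27 Mb) and at 40.29 Mb in MEFs (SD 24.9 kb, n = 4). The late domain thus ran 346 kb further right in NPCs and 380 kb further in MEFs, beyond the last receptor gene, and the ranges did not overlap. The MEF shift was 388 kb without embryos 1 and 3. With median-centred columns the shifts were 375 and 465 kb, and with quantile normalisation 351 and 465 kb. XEN cells crossed at 40.03 Mb and V6.5 at 40.05 Mb. The left edge of cluster 2 crossed 0 at 37.77 Mb in ESCs (SD 22 kb, n = 5), 37.71 Mb in NPCs and 37.62 Mb in MEFs (SD 13.7 kb, n = 4), which is -57 kb and -148 kb from the ESC position. The MEF shift there was -200 kb with median-centred columns and -225 kb with quantile normalisation, and -156 kb without embryos 1 and 3. XEN cells crossed at 37.92 Mb and V6.5 at 37.82 Mb, on the other side of the ESC position. At the right edge of cluster 1 the positions were 20.27 Mb in ESCs (SD 33.7 kb, n = 5), 20.35 Mb in NPCs and 20.35 Mb in MEFs (SD 28.9 kb, n = 4). The MEF shift there was 81.4 kb as deposited, 140 kb with median-centred columns and 136 kb with quantile normalisation.

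Olfr160 and Olfr18, each at another end of a cluster, moved less than the genes of the right end of cluster 2. Olfr24, the first gene of cluster 1, differed more than these: by -2.20 in MEFs against ESCs (limma adjusted p = 1.27e-07), or -2.14 without embryos 1 and 3 (limma adjusted p = 1.24e-05). In NPCs against ESCs it differed by -1.47 (limma adjusted p = 0.000233). Olfr160, the first gene of cluster 2 (Entrez 80706, chr9:37711348-37712280), had 0.47, 0.94, 0.55, 0.09 and 0.67 in the ESC lines, -0.03 and -0.41 in the NPC lines and -0.93, -0.85, -0.60 and -1.09 in the embryos. All MEF values lay below all ESC values, and the MEF minus ESC difference was -1.41 ± 0.18 (SE; limma adjusted p = 3.77e-06), or -1.51 without embryos 1 and 3 (limma adjusted p = 0.000113). Olfr18, the last gene of cluster 1 (Entrez 18315, chr9:20313892-20336094), had 0.07, 1.06, 0.82, 0.70 and 0.93 in the ESC lines, -0.12 and -0.58 in the NPC lines and -0.07, -0.03, -0.21 and -0.71 in the embryos. Its NPC minus ESC difference was -1.07 ± 0.27 (SE; limma adjusted p = 0.0031), with the ESC line F121 close to the NPC values. Olfr18 and Olfr873, which share a window, were the earliest members of cluster 1 in ESCs, NPCs, MEFs and XEN cells.

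Genes next to the clusters were called in these comparisons on some sides only. Left of cluster 1, within 500 kb, 7 genes, among them Muc16, a membrane mucin, and Naalad2, a peptidase, were late in ESCs, and all 7 were called later in NPCs and in MEFs. Right of it, 11 genes from Zfp560, a zinc finger gene, to Rdh8, a retinol dehydrogenase, were early, with 0 called later in either comparison and Rdh8 called earlier in MEFs. Right of cluster 2, Zfp202, a zinc finger gene, went from 2.04 in ESCs to -0.64 in NPCs and -0.69 in MEFs, and Scn3b, a sodium channel subunit, from 2.18 to 0.14 and -0.14. Both were called later in both comparisons. The stretches called later ended at chr9:40400000 in both, inside Gramd1b. Its mean difference was -0.97 in NPCs and -1.23 in MEFs, but its windows did not all share a call, so the gene was not called. Clmp beyond it was not called. Tmem225, which lies inside cluster 2 near its right end and is no receptor gene, went with its neighbours, from 1.83 in ESCs to -1.22 and -1.07. Left of cluster 2, 12 of 14 genes were called later in MEFs than in ESCs, and 10 later in MEFs than in NPCs.

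In ESCs the 129 allele of cluster 1 replicated earlier than the Cas allele, and cluster 2 showed no difference of its mean. The mean allelic difference of cluster 1 (129 minus Cas) was 0.77 in F121, 0.83 in F121-6, 0.59 in F121-9, 0.62 in F123 and 0.95 in Cas129, a mean of 0.75 ± 0.15 (SD, n = 5). All 5 lines were above 0, including Cas129 with the cross turned round. In cluster 2 the lines had -0.05, -0.00, 0.14, 0.17 and 0.05 (0.06 ± 0.09, SD, n = 5), on both sides of 0. A window was called at an adjusted p under 0.05 and a difference of at least 0.5. In cluster 1, 14 of 29 windows were called with an earlier 129 allele and 1 with an earlier Cas allele, where 13.2% and 11.9% of all autosomal windows were called. These held 24 and 2 of the 51 members. In cluster 2, 6 and 3 of 48 windows were called, with 20 and 9 of 124 members, a share below that of all windows. Among the olfactory receptor windows on other autosomes 24.2% were called in either direction, against 25.2% of all windows. The median allelic difference over member windows was 0.40 in cluster 1, 0.06 in cluster 2 and 0.01 over all windows.

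**Figure D4:**
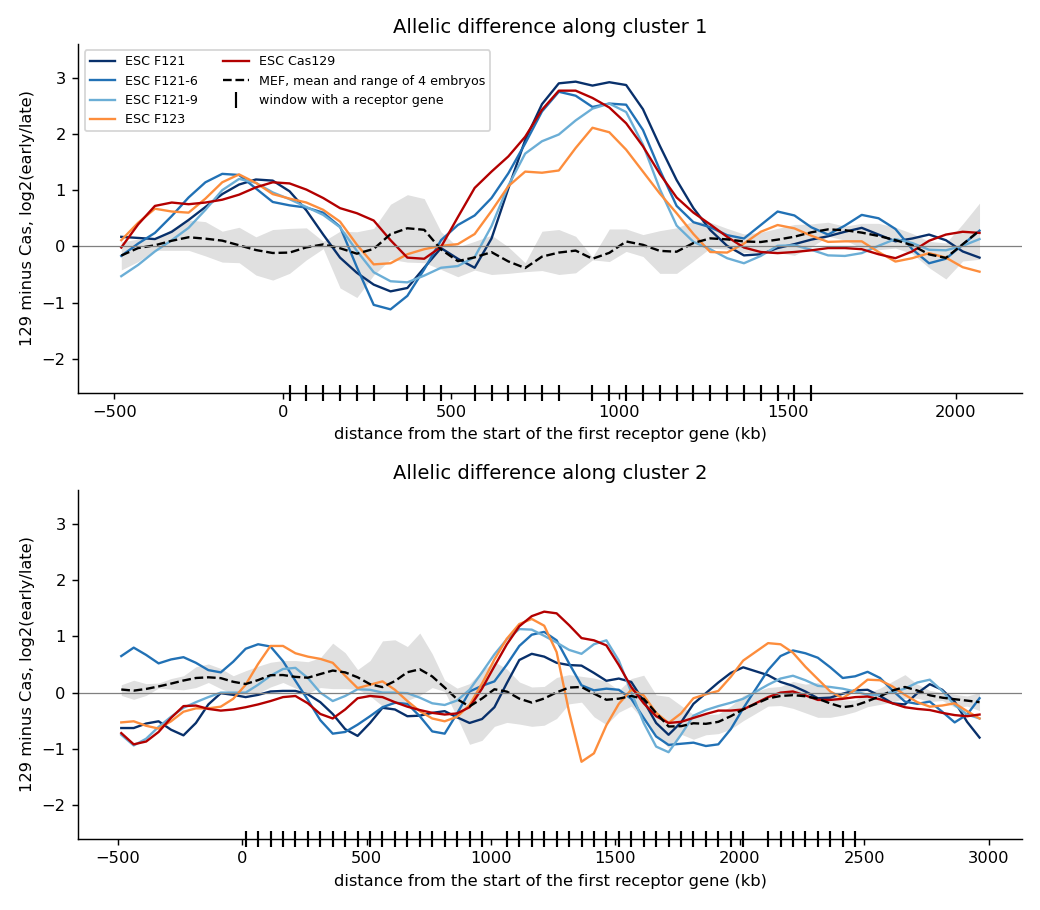
Allelic difference (129 minus Cas, log ratio) along cluster 1 (top) and cluster 2 (bottom) against the distance in kb from the start of the first receptor gene; each thin line is an ESC line, and the MEF line is the mean of 4 embryos with their range shaded. The 5 ESC lines rise together to a peak of about 2.51 in cluster 1, where the MEF line stays near 0.

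The difference in cluster 1 was concentrated in a stretch of 12 consecutive called windows, chr9:19350001-19950000 (600 kb), which holds 20 members from Olfr846 to Olfr863-ps1 and the zinc finger gene Zfp317. The stretch was delimited by the ESC calls, so its ESC values are a description. The difference rose smoothly from 0.66 at Olfr846 and Olfr847 through 1.73 at Olfr850 to 2.51 at Olfr856-ps1, and fell through 1.89 at Olfr859 and Olfr860 to 0.75 at Olfr77 and Olfr863-ps1. The mean over the stretch was 2.12 in F121, 1.96 in F121-6, 1.65 in F121-9, 1.34 in F123 and 2.01 in Cas129, or 1.82 ± 0.32 (SD, n = 5). On the level of each allele, the 129 allele had -1.34, -1.06, -1.21, -1.92 and -1.22 and the Cas allele -3.46, -3.02, -2.86, -3.26 and -3.23. The 129 values did not overlap with the Cas values, and both alleles were late.

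At the peak lies Olfr856-ps1 (Entrez 624341, chr9:19657039-19658680), a transcribed pseudogene alone in its window. Its allelic difference was 2.86, 2.48, 2.45, 2.11 and 2.64 in the ESC lines, ordered as above, 2.51 ± 0.12 in the model (SE; limma adjusted p = 1.16e-08). The 129 allele stood at -0.35, 0.20, -0.05, -0.55 and -0.43, close to the boundary between early and late, and the Cas allele at -3.21, -2.29, -2.50, -2.66 and -3.07. Every line showed the same order of its alleles, with no overlap.

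Olfr855 (Entrez 258517, chr9:19584511-19585502), with its promoter printed above, had 2.90, 2.75, 1.99, 1.35 and 2.77, a difference of 2.35 ± 0.21 (SE; limma adjusted p = 1.18e-06), shared with Olfr854 in the same window. Olfr58 (Entrez 18358, chr9:19780283-19784064) had 2.87, 2.52, 2.39, 1.72 and 2.19, or 2.34 ± 0.34 (SE; limma adjusted p = 9.52e-05). F123 was the lowest of the 5 lines at both genes and all lines were above 1. Zfp317, no receptor gene but inside the stretch, had a mean of 2.47.

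This difference was not seen in NPCs or MEFs. Over the 600 kb stretch the NPC lines had 0.38 (F121-9) and -0.61 (Cas129; -0.80 and -0.43 in its 2 profiles), and the embryos -0.23, -0.02, -0.03 and -0.23 (-0.13 ± 0.12, SD, n = 4). In both types the 2 alleles were late together, with -3.79 (129) and -3.67 (Cas) in NPCs and -3.94 and -3.81 in MEFs. Between ESCs and NPCs, whose columns share a scale, the mean of the 129 allele went from -1.35 to -3.79 and that of the Cas allele from -3.17 to -3.67.

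**Figure D5:**
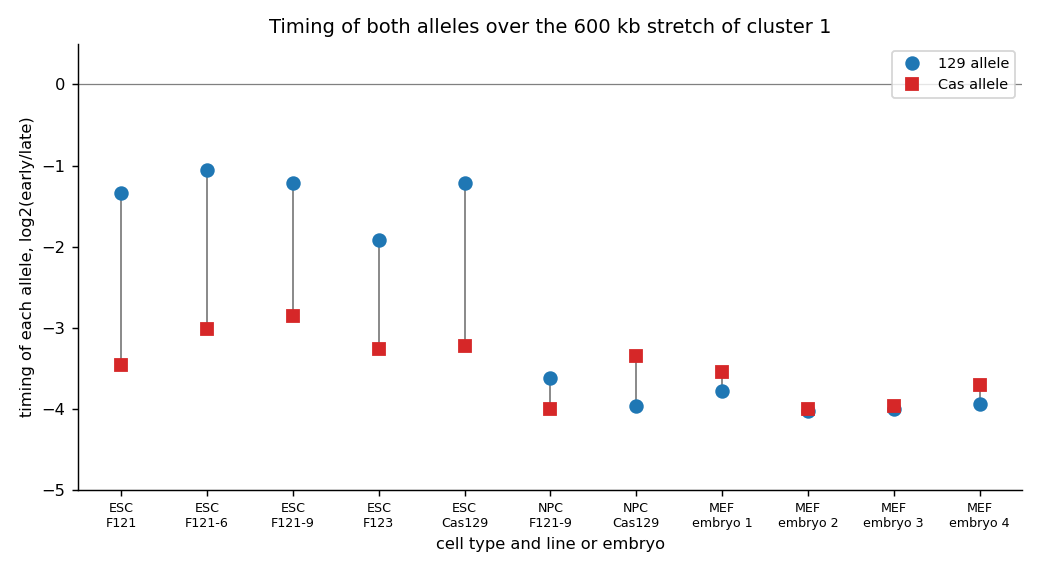
Level (log ratio of early over late) of the 129 and the Cas allele, averaged over the 600 kb stretch of cluster 1, in each ESC line, NPC line and MEF embryo; points of a line or embryo are joined. In ESCs the 129 allele lies between -1.92 and -1.06 and the Cas allele between -3.46 and -2.86, while in NPCs and MEFs both lie below -3.

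The difference between cell types was itself tested. MEF minus ESC allelic differences were called lower in 13 and higher in 1 of 29 windows of cluster 1 (22 and 2 members), where 15.1% and 12.3% of all windows were called. NPC minus ESC differences were called lower in 12 and higher in 1 (20 and 2 members), where 8.03% and 8.04% were. At Olfr856-ps1 the embryos had -0.19, -0.23, -0.22 and -0.24 and the NPC lines 0.71 and 0.00, the last the mean of 2 profiles at -1.24 and 1.24. All embryos lay below 0 and all ESC lines above 2, a MEF minus ESC difference of -2.73 ± 0.18 (SE; limma adjusted p = 7.16e-07), or -2.74 without embryos 1 and 3 (limma adjusted p = 0.000166). NPC minus ESC was -2.15 ± 0.22 (SE; limma adjusted p = 0.000102). At Olfr58 the NPC lines disagreed, with 0.82 in F121-9 and -2.78 in Cas129 (profiles -3.01 and -2.56), and the NPC minus ESC difference was -3.32 ± 0.64 (SE; limma adjusted p = 0.00371). The embryos had 0.31, 0.09, 0.04 and -0.09 there. Without embryos 1 and 3, 10 windows of cluster 1 were called lower in MEFs and 0 higher.

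Within MEFs, 0 windows of cluster 1 were called with an allelic difference, also without embryos 1 and 3 (5.5% of all windows had an earlier 129 allele and 7.36% an earlier Cas allele), and 2 had an unadjusted p under 0.05 in limma. The allelic profiles of cluster 1 in the 2 profiles of an embryo correlated at -0.389 to -0.17, against 0.83 to 0.937 between repeat ESC profiles of a line, so the small values in MEFs did not repeat. Within NPCs, 1 window of cluster 1 and 0 of cluster 2 were called, with an earlier Cas allele (2.24% of all windows, and 4.71% in either direction), and 5 and 7 had an unadjusted p under 0.05 in limma. Without the F121-9 NPCs, 3 and 2 windows were called. With 2 NPC lines, of opposite cross, the mean over cluster 1 was 0.31 in F121-9 and -0.41 in Cas129, on different sides of 0.

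The other called stretches of cluster 1 in ESCs lay nearer its left end and were smaller. From chr9:18450001-18900000 (450 kb), beginning left of the first receptor gene and holding 4 members, the lines had 0.82, 0.94, 0.82, 0.91 and 0.94 (0.88 ± 0.06, SD, n = 5), all close together. The embryos had -0.01, -0.05, 0.23 and -0.10, the NPC lines 0.27 and 0.04. Olfr24, the first member (Entrez 18322, chr9:18754692-18755633), had 0.98, 0.73, 0.84, 0.85 and 1.12, or 0.90 ± 0.13 (SE; limma adjusted p = 6.36e-05), and its neighbours Mbd3l1 and Muc16 had 0.60 and 0.94. The only stretch of cluster 1 with an earlier Cas allele, chr9:19050001-19150000, held Olfr836 and Olfr837. Olfr836 had -0.74, -0.88, -0.64, -0.14 and -0.20, with all 5 lines below 0 (-0.52 ± 0.16, SE; limma adjusted p = 0.0177), and this call was lost without F121 (-0.46), F121-6 (-0.43) or F121-9 (-0.49).

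Counting signs without any threshold, 15 of 29 windows of cluster 1 (51.7%) had an earlier 129 allele in all 5 ESC lines and 2 an earlier Cas allele, against 20.9% and 18.7% of all autosomal windows. In cluster 2 the counts were 7 (14.6%) and 11 (22.9%) of 48. In MEFs, 0 and 3 windows of cluster 1 and 9 and 10 of cluster 2 had the same sign in all 4 embryos, against 22.9% and 26.4% of all windows.

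Cluster 2 held a stretch with an earlier 129 allele and a shorter one with an earlier Cas allele in ESCs. In the first, chr9:38750001-39050000 (300 kb, 20 members from Olfr920 to Olfr936), the 129 allele was earlier: 0.52, 0.81, 0.98, 0.84 and 1.24 in the ESC lines, ordered as above (0.88 ± 0.26, SD, n = 5). The embryos had 0.21, -0.04, 0.13 and -0.49, overlapping with no ESC line, and the NPC lines 0.58 and -0.62. Olfr26 (Entrez 18324, chr9:38855060-38855990), at its centre, had 0.69, 1.03, 1.12, 1.31 and 1.36, or 1.10 ± 0.16 (SE; limma adjusted p = 0.000113), and -0.00, -0.21, 0.10 and -0.60 in the embryos. The MEF minus ESC difference at Olfr26 was -1.28 ± 0.25 (SE; limma adjusted p = 0.00151), with no overlap, and -1.51 without embryos 1 and 3 (limma adjusted p = 0.00867). In the last window of this 300 kb stretch, with Olfr146 and Olfr936, the ESC call held in only 6 of 19 alternatives. The ESC value of that window ran from 0.36 to 0.74 over them.

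About 300 kb to the right, chr9:39350001-39500000 (9 members, Olfr949-ps1 to Olfr44) had an earlier Cas allele in ESCs, with -0.61, -0.87, -0.92, -0.42 and -0.50 (-0.66 ± 0.22, SD, n = 5). The embryos had -0.79, -0.74, -0.41 and -0.14 over the same windows, also all below 0. The NPC lines lay on the other side, at 0.45 and 0.89, although the 2 Cas129 profiles differed, at 2.06 and -0.28. Olfr952 (Entrez 235248, chr9:39426093-39427148), the only member in its window, had -0.75, -0.93, -1.06, -0.54 and -0.54 in ESCs (-0.77 ± 0.14, SE; limma adjusted p = 0.000646) and 0.40 and 1.07 in NPCs, an NPC minus ESC difference of 1.50 ± 0.26 (SE; limma adjusted p = 0.00216).

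The only stretch of either cluster called in MEFs overlapped with this one, at chr9:39400001-39650000 (250 kb, 5 windows, 12 members). Its embryo values were -0.71, -0.59, -0.65 and -0.30 (-0.56 ± 0.18, SD, n = 4), with embryo 4 nearest 0. The ESC lines had -0.26, -0.92, -0.55, -0.20 and -0.44 there, V6.5 0.10 (129 minus C57B6) and XEN cells 0.35 (C57B6 minus Cas). Olfr44 (Entrez 18343, chr9:39484204-39493988) had -0.72, -0.74, -0.70 and -0.23 in embryos 1 to 4 (-0.60 ± 0.12, SE; limma adjusted p = 0.0027). Olfr952 had -0.89, -0.98, -0.47 and -0.07 (-0.60 ± 0.16, SE; limma adjusted p = 0.0156). The 5 windows are 10.4% of the cluster's, and 7.36% of all windows were called with an earlier Cas allele in MEFs. Without embryos 1 and 3 none of the 5 was called (limma), with -0.52 at Olfr952 and -0.48 at Olfr44; without embryo 1, 1 window was called, without embryo 2, 3, and without embryo 3, 2. In cluster 2 the MEF minus ESC allelic difference was called higher in 6 windows and lower in 4 (18 and 16 members), where 12.3% and 15.1% of all windows were called and 27.4% in either direction, so the cluster's share was not above that of the genome. It was called in 0 and 4 windows without embryos 1 and 3. In either direction the 10 windows became 6 without F121-6, 4 without embryo 2 and 6 without embryo 3. The NPC minus ESC difference was called higher in 6 and lower in 4 (13 and 12 members), where 16.1% of all windows were called in either direction, and in 4 altogether without the Cas129 NPCs.

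XEN cells and V6.5 were read as values only. In XEN cells the mean allelic difference of cluster 1 (C57B6 minus Cas) was -0.58 and -0.56 in the 2 profiles, an earlier Cas allele. Of its windows 62.1% had a size of at least 0.5, against 32.8% of all autosomal windows in XEN cells. Over the 600 kb stretch the 2 profiles had -0.30 and -0.56. The sign of these XEN means was thus opposite to that of 129 against Cas in ESCs, but the alleles compared differ. Near the peak of the ESC difference the sign was not opposite throughout. The XEN profiles had 0.84 and 0.11 at Olfr856-ps1, 0.52 and -0.41 at Olfr855, and -0.67 and 0.44 at Olfr58. In cluster 2 the XEN mean was 0.04. V6.5 (129 minus C57B6) had 0.61 over the 600 kb stretch, with the 129 allele at -2.11 and the C57B6 allele at -2.72, and 1.33 at Olfr855, 0.67 at Olfr856-ps1 and 0.40 at Olfr58. Over all windows the median size of the allelic difference in V6.5 was 0.03. At Olfr24 and Olfr26, V6.5 had -0.01 and 0.02, with a timing of -0.37 and -0.50 that was earlier than in any other ESC line at these genes (from -2.13 to -1.04 and from -2.54 to -1.20).

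Growth on feeders against 2i was compared in the lines grown both ways, F121-6 and F121-9 (8 profiles), in a model with a term for the line. Timing was called earlier on feeders in 4 of 48 windows of cluster 2 (14 members) and 0 of cluster 1, where 1.82% of all windows were; 0 member windows were called later, against 3.94% of all windows, and 5.76% were called in either direction. The 4 windows form a stretch, chr9:38900001-39100000 (200 kb). In F121-6 it had -2.71 and -2.97 in 2i and -2.09 and -1.59 on feeders, and in F121-9 -2.61 and -3.02 in 2i and -1.49 and -1.47 on feeders. All profiles on feeders were earlier than all in 2i, which is a description, since the same profiles chose the windows. Without the second 2i profile of F121-6 the count was 8. At Olfr933, Olfr934 and Olfr935, in a shared window and within the stretch, the difference was 1.18 ± 0.22 (SE; limma adjusted p = 0.00411). F121, F123 and Cas129 were profiled only in 2i. The allelic difference was called in 0 windows of either cluster and in 0% of all windows, with an unadjusted p under 0.05 in limma in 7 and 5 member windows.

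Protein-coding members and pseudogenes were spread through both clusters. Their median ESC timing was -2.11 for 35 coding genes and -2.42 for 16 pseudogenes of cluster 1, and -1.78 for 92 coding genes and -2.19 for 31 pseudogenes of cluster 2 with a window. In ESCs 3 coding genes and 0 pseudogenes of cluster 1 and 15 and 2 of cluster 2 lay in early windows, and in NPCs and MEFs none did. These values are set by position, since coding genes and pseudogenes share windows.

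Genes that olfactory neurons use to produce and read receptors lie elsewhere in the genome. Of 21 such genes on a list that includes the receptor transporters Rtp1 and Rtp2, the transcription factor Ebf2, the olfactory marker protein Omp and the channel subunits Cnga4 and Cngb1, 19 had a window. In NPCs against ESCs 3 were called earlier, Ebf2 (1.94), Stoml3 (1.76) and Rtp2 (1.24), and 0 later, where 16.4% of all windows were called earlier and 16.1% later, so the share called earlier was near that of all windows. Ebf2 went from -0.04 in ESCs to 1.90 in NPCs and 1.99 in MEFs. In MEFs against ESCs 8 were called earlier and 1, the adenylyl cyclase Adcy3, later, where 30.3% of all windows were called earlier and 13.7% later, on columns of differing scale. For the allelic difference in ESCs Cnga4 (0.73) was called with an earlier 129 allele and Rtp2 (-0.91) with an earlier Cas allele, where 25.2% of all windows were called in either direction. Olfr369-ps1, the single pseudogene near the start of the chromosome, had a mean timing of -0.64 in ESCs, -3.47 in NPCs, -3.26 in MEFs and -0.05 in XEN cells. Its allelic difference was 0.43 in ESCs and -0.47 in MEFs.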

How the data were processed

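BrdU-labelled early and late S-phase DNA of 54 libraries was sequenced from hybrid mouse cells. The deposited table gives, per parental allele and profile, log2 ratios of early over late signal in 50 kb windows of mm10; log2 is an assumption, since the base is not stated in the file headers or labels. The submitters' processing notes name Bowtie2, SAMtools and bedtools, without roles; read filters and normalization are not given in the sources used here. Depth is unknown.

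Genes were placed with the RefSeq annotation of GRCm38.p6, and every window a member overlaps was used. Of 46268 windows, the 43941 on autosomes were tested. Profiles of a line or embryo were averaged, and limma 3.58.1 (R 4.3.3; tables with Python 3.11.15 and pandas 2.3.3) was fitted with a mean for each of 3 cell types and Benjamini-Hochberg adjustment over all autosomal windows. Windows were called at an adjusted p under 0.05 and a size of at least 0.5 (allelic) or 1 (timing); a gene in 2 windows was called where both were, in the same direction. ESCs and NPCs of the same line entered this fit as separate replicates, without a term for the shared line. Feeders against 2i was fitted on 8 profiles with line as a covariate. Table columns name a line, treatment and replicate, and were matched to the labels by name. Named genes are the first and last member of each cluster and those with the highest or lowest timing, allelic difference or difference between cell types; others were named after their values were seen. The members, gene lists and tests were chosen with earlier results of these data known.

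In simulated data with 200 changed windows of 43941, the model recovered 85.5% for the ESC, 48.5% for the NPC and 80% for the MEF allelic difference (size 1), and 98% and 92% for MEF minus ESC and NPC minus ESC timing (size 2). There were 1 to 10 false calls. The simulated noise was independent between windows and all other windows had no difference, unlike the real data. These rates therefore do not give the power of the tests in the real data. Alternatives were column centring, quantile normalization, no minimum size, 2i profiles only, only the cell types compared, leaving out lines, embryos or embryos 1 and 3, and replicate or random blocks.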

Additional observations from a re-analysis of the deposited data

Results flagged for a closer look

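The allelic difference between 129 and Cas was called as different between cell types in windows of both clusters. Between MEFs and ESCs it was called in 14 windows of cluster 1 and 10 of cluster 2, and between NPCs and ESCs in 13 and 10, each by a limma test of the difference itself, where 27.4% and 16.1% of all autosomal windows were called. Cluster 2, with 10 of 48 windows, lay below the former share. The ESC lines are shared by both tests.

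In 2 of 104 groups of values of named genes a sample stood apart from the rest of its group, where chance gives about 1 in 20. Embryo 4 had an allelic difference of -0.23 at Olfr953-ps1, while the other embryos had -0.74 to -0.70. Embryo 4 also had the latest timing at Olfr986, -1.16, while the others had -0.81 to -0.75.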

How the results depend on the processing

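None of the alternatives turned the direction of a called ESC or MEF allelic difference, or a called NPC minus ESC or MEF minus ESC timing difference, of a named gene. Values that were not called could turn: without embryos 1 and 3 the MEF allelic difference of Olfr832 went from -0.03 to 0.27. Of the counts of called windows and genes in the clusters, 322 of the recomputed counts stayed within 1.5 times the value given above and 50 did not; for named genes, 931 recomputed values kept their call or size, 30 lost the call and 13 moved. Of the named genes, 10 of 12 ESC allelic calls, 12 of 15 NPC minus ESC timing calls, 17 of 17 MEF minus ESC timing calls and 0 of 2 MEF allelic calls held in every alternative. The counts that moved follow, as windows called. MEF minus ESC timing in cluster 1 had 29 with median centring, 28 with quantile normalization and 29 with no minimum size. MEF minus NPC timing had 8, 1 and 6 in cluster 1 and 1, 1 and 15 in cluster 2 under the same 3. MEF allelic calls in cluster 2 fell to 0 with quantile normalization and 0 without embryos 1 and 3. With no minimum size, ESC allelic calls in cluster 2 were 16, and feeders minus 2i timing calls were 2 in cluster 1 and 15 in cluster 2, the latter 10 with median centring. NPC allelic calls in cluster 1 were 0 without embryos 1 and 3, with 2i profiles only and with only the cell types compared. Without embryos 1 and 3 cluster 2 had 4 MEF minus ESC and 6 NPC minus ESC allelic calls, and 6 NPC minus ESC with only the cell types compared.

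The replicate numbers of the labels showed no general pairing of the samples over 55 pairs of groups. Deviations of same-numbered samples correlated at -0.0713 to 0.039 for the allelic difference (median -0.00121). For timing they correlated at -0.397 to 0.304 (median -0.007), so some pairs of groups were not near 0. With the replicate block on single profiles, MEF allelic calls in cluster 2 were 3, NPC allelic calls 0 in cluster 1 and 1 in cluster 2, and MEF minus NPC timing calls in cluster 2 were 7. With line within a cell type, or embryo, as a random block they were 3, 0, 2 and 7. ESCs and NPCs of the same line were separate blocks there.

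Leaving out each line or embryo gave, for clusters 1 and 2, 14 to 15 and 8 to 10 windows for the ESC allelic difference, 0 to 0 and 1 to 6 for MEFs, 0 to 3 and 0 to 2 for NPCs, 12 to 15 and 4 to 10 for MEF minus ESC and 10 to 12 and 4 to 12 for NPC minus ESC. For timing it gave 20 to 26 and 28 to 34 for NPC minus ESC, 17 to 20 and 27 to 29 for MEF minus ESC, 0 to 1 and 3 to 8 for MEF minus NPC, and, leaving out profiles, 0 to 1 and 4 to 8 for feeders minus 2i, with 0 to 0 for its allelic difference. Leaving out 1 NPC line leaves a single one, whose variation was taken to equal that of ESCs and MEFs. The cause of these moves was not tested. Read depth is unknown, and 2 NPC lines limit what NPC tests can call.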

Other observations

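The allelic difference repeated less well in cluster 2 than in cluster 1 in ESCs: over member windows, repeat profiles of a line correlated at 0.384 to 0.878 in cluster 2, against 0.83 to 0.937 in cluster 1. In MEFs the correlations between the 2 profiles of an embryo were 0.0902 to 0.699 in cluster 2. XEN profiles correlated at 0.401 in cluster 1 and 0.0936 in cluster 2, and the Cas129 NPC profiles at 0.471 and 0.414. At Olfr843, in a window with 3 pseudogenes, the F121-9 NPC profile had an allelic difference of 2.07 and the Cas129 NPCs 0.09, and at Olfr943 they had -0.43 and -2.54, so single NPC lines carried large values that the other did not.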
